A study of Mus musculus with 14 samples.

Results

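The regions described here are the stretches bound by the transcription factor Sp5 in mouse gastruloids at which no region of the coactivator p300 was found. An Sp5 region was a merged stretch with a peak in both Sp5 replicates, after peaks overlapping a peak of either input were dropped, and a p300 region was built in the same way from both p300 gastruloid replicates. Of 10953 Sp5 regions, 1671 (15.3%) overlapped no p300 region and are called the Sp5 regions without p300; the other 9282 (84.7%) are the Sp5 regions with p300. The members were thus selected on the Sp5 and p300 peak lists of the gastruloids, and Sp5 and p300 values are given as a description, with no test.

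Gastruloids are aggregates of mouse embryonic stem cells (mESCs) that form germ layers and a body axis in culture. Here each began as 300 sorted cells of an E14 reporter line, received the Wnt agonist CHIR99021 at 3 µM after 48 h, and was collected at 120 h. Every protein was tagged at its own gene in that line, so no group was untagged. The Sp5 gastruloids (2 replicates), the Zeb2 gastruloids (2) and the RXRα gastruloids and mESCs (2 each) carried an HA tag with the FKBP12F36V degron and were precipitated with an HA antibody, while the p300 gastruloids and mESCs (2 each) carried V5 with miniTurboID and were precipitated with a V5 antibody. The 2 inputs, 1 for gastruloids and 1 for mESCs, came from the p300 line. Sp5 and p300 were therefore read in different lines with different antibodies, and the effect of the protein, the line and the antibody on a missing p300 peak cannot be told apart. Whether replicates were separate cultures is not given in the sources used here, and agreement between them may be technical.

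Sp5 is a zinc-finger factor of the Sp/KLF family, which binds GC-rich boxes of the form GGGCGG; its gene is switched on by Wnt signalling in the primitive streak and tail bud. p300 is a histone acetyltransferase recruited by many transcription factors, and its peaks mark active enhancers and promoters. Zeb2 is a zinc-finger repressor that binds E-boxes and acts in epithelial-mesenchymal transition and neural crest, and RXRα is the nuclear receptor with which retinoic acid receptors form dimers on DNA.

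The promoters of the 4 strongest of these regions with a summit in a promoter window each held a GC box, the element bound by the Sp family, and their sequences are shown so that its place can be seen. Each is the RefSeq promoter window of GRCm38.p6, from 250 bases before to 50 after the start, 5′ to 3′ on the gene's strand, with every GGGCGG or its reverse complement CCGCCC in capitals. Cldn1 (chr16:26371790-26372089, minus strand) encodes a claudin of tight junctions, and Hbs1l (chr10:21295729-21296028, plus strand) a GTPase of ribosome rescue. Pex10 (chr4:155066780-155067079, plus strand) encodes a ubiquitin ligase subunit of peroxisome assembly. Gid4 (chr11:60416895-60417194, plus strand) encodes a substrate receptor of a ubiquitin ligase. Weaker regions at genes of the lists used further on were added. Notch1 (chr2:26503773-26504072, minus strand) encodes the receptor that drives the segmentation clock. Tfcp2l1 (chr1:118627695-118627994, plus strand), a factor of naive pluripotency, is shown as a window with no exact GGGCGG on either strand.
Cldn1: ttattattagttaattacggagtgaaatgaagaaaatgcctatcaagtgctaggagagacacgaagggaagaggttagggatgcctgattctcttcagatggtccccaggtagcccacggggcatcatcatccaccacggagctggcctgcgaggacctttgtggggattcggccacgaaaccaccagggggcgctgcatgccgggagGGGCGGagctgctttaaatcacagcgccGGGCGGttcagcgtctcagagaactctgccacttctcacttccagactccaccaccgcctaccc
Hbs1l: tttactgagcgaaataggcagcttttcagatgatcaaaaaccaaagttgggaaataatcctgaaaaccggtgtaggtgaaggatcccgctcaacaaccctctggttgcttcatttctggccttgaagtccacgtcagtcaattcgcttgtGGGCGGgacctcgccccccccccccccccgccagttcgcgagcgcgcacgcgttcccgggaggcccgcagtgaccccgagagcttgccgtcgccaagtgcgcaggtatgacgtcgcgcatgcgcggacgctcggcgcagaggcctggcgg
Pex10: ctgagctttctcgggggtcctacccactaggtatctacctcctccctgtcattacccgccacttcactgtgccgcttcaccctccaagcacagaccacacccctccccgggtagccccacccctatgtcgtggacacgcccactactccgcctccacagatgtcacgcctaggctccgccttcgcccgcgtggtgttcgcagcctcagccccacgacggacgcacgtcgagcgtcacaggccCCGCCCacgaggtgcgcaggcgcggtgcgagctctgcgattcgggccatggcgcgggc
Gid4: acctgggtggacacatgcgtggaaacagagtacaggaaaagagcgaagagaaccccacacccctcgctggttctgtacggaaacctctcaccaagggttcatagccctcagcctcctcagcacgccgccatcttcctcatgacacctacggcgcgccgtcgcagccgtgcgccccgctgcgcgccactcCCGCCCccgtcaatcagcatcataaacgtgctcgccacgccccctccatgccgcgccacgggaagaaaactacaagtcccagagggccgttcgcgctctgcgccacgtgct
Notch1: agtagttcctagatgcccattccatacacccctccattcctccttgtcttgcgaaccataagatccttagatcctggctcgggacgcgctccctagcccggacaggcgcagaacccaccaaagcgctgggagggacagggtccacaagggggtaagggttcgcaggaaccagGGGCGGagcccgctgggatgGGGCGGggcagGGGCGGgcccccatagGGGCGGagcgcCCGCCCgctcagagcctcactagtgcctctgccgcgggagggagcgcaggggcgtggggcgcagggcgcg
Tfcp2l1: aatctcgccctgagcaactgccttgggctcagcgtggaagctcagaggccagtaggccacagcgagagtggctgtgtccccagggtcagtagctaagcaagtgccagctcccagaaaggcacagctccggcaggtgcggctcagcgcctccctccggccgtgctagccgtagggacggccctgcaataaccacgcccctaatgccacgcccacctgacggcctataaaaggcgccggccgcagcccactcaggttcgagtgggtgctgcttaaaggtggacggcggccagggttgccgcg

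For comparison, the promoter window with the strongest Sp5 region with p300 was that of Prdm9 (chr17:15564305-15564604, minus strand), which encodes the methyltransferase that places meiotic recombination.
Prdm9: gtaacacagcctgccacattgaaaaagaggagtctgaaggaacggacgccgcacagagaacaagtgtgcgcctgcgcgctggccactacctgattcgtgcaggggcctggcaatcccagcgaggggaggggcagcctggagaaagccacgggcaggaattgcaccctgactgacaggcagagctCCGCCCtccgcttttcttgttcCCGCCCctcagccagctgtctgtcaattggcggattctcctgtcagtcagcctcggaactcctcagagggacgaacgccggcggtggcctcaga

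The Cldn1 window held 2 GC boxes, with the Sp5 summit 45 bases before the start. In the Hbs1l window the single box lay close to the summit, 106 bases before the start. Pex10 also had 1 box, but it lay near the 3′ end of the window, away from the summit at 104 bases before the start. Gid4 had 1 box and Notch1 had 5, and the Prdm9 window held 2. Each match is a description of the letters and not evidence of a site. Only GGGCGG on either strand was counted as a GC box, so a window without it may hold other GC-rich elements.

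Over all promoter windows, those under Sp5 regions without and with p300 differed little in their GC boxes. A summit lay in a window at 436 Sp5 regions without p300 (26.1%) and at 3825 with p300 (41.2%), and no window held both kinds. GGGCGG on either strand was present in 86.9% of the windows without p300 and in 89.2% of those with p300, beside 35.6% of all 32815 windows of the table. The median distance from the summit to the nearest box was 15 bp in both kinds, and a box lay within 50 bp of the summit in 74.8% of the windows without p300 and in 76.2% of those with p300. The windows without p300 were somewhat less rich in CpG, with a median of 19 CpG and 62.3% GC against 25 CpG and 65.3% GC with p300; over all windows the medians were 7 CpG and 52.7% GC.

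Other short motifs, searched on both strands, were less even. The ETS core CCGGAA stood in 18.3% of the windows without p300 and 30.4% of those with p300, beside 14.9% of all windows. The cAMP response element TGACGTCA stood in 0.688% (3 windows) without p300 and 3.66% (140 windows) with p300, beside 1.79% of all. These last 2 motifs were chosen after the values were seen. The CCAAT box was in 41.1% and 35.9%, the TATA box TATAAA in 6.88% and 4.71%, and the E-box CACCTG, the kind that Zeb2 binds, in 21.1% and 17.6% of the windows without and with p300, beside 37.4%, 13.6% and 20.2% of all windows. The TCF/LEF core CTTTGA, the element through which Wnt signalling acts, was in 9.17% without and 9.15% with p300, beside 16% of all windows.

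The Sp5 peaks of the regions without p300 were on the whole weaker and narrower. The authors' fold enrichment had a median of 7.20 in replicate 1 (range 2.33 to 34.2) and 5.27 in replicate 2 (1.79 to 23.6), against medians of 8.68 and 5.96 at Sp5 regions with p300. Median peak width was 329 and 353 bp without p300, against 485 and 491 bp with p300. Solved from the authors' fold and −log10 p, the number of fragments over the summit had medians of 25 and 21 without p300, against 35 and 28 with p300. The distributions overlapped over most of their range, and the strongest region without p300 in replicate 1 came close to the strongest with p300 (40.1).

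**Figure D1:**
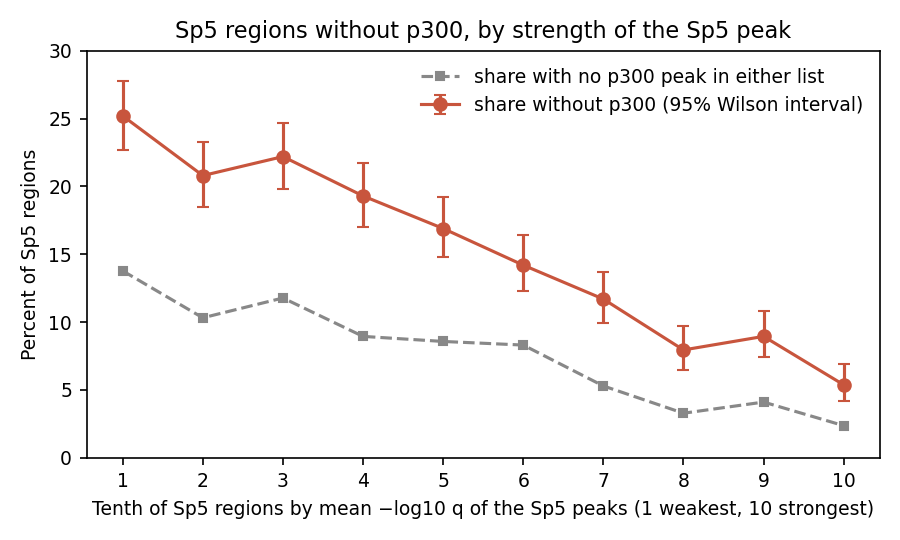
Share of Sp5 regions without p300 in each of 10 equal groups of Sp5 regions ranked by the mean −log10 q of their 2 Sp5 peaks, with 95% Wilson intervals (red), and the share with no p300 peak in either list (grey). The share was 25.2% in the weakest group and 5.38% in the strongest.

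The Sp5 regions were ranked by mean −log10 q and divided into 10 equal groups. The share without p300 was 5.38% in the group of highest −log10 q (95% Wilson interval 4.20 to 6.88, n = 1096) and 25.2% in the lowest (22.7 to 27.8, n = 1096). The plot by group shows a decline over most of the range. Intervals cover counting error only. Even the strongest group held 59 regions without p300, of which 26 had no p300 peak in either list.

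Absence of a p300 region did not mean absence of any p300 peak. No p300 peak in either list was found at 841 regions (50.3%), while 816 (48.8%) had a peak in 1 list only, 371 of them in replicate 1 and 445 in replicate 2. The remaining 14 had peaks in both lists that did not overlap each other. Where present, these p300 peaks were low, with a median fold of 3.61 in replicate 1 and 4.10 in replicate 2, against 5.47 and 6.02 at Sp5 regions with p300.

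The nearest p300 region was often not far away. Its median distance was 6755 bp (quartiles 2148 and 16278 bp), 239 regions (14.3%) lay within 1000 bp of one, and 36 were more than 100 kb away. Just inside the rule, 28 regions lay within 100 bp of a p300 region, the closest at 1 bp. Just outside it, 10 Sp5 regions with p300 overlapped by 50 bp or less, the smallest overlap being 11 bp.

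The 15 strongest regions by mean fold over both replicates were not a p300-free group in replicate 2. Of these, 10 had a p300 peak in replicate 2 only, 1 in replicate 1 only and 4 in neither list. They lay at gene ends (6), inside genes (5) and between genes (4).

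**Figure D2:**
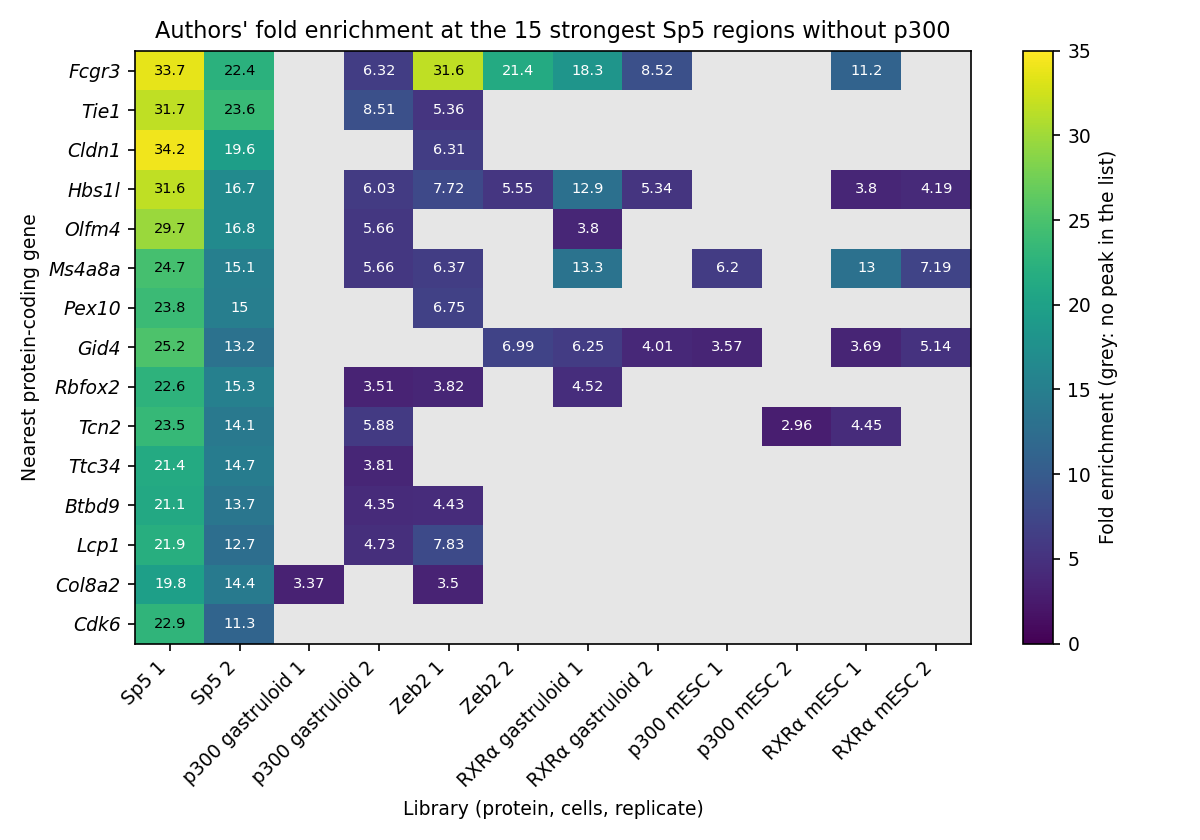
Authors' fold enrichment of the strongest overlapping peak in each of 12 libraries (columns) at the 15 strongest Sp5 regions without p300 (rows, named by the nearest protein-coding gene); grey means no peak in that list. Sp5 folds run from 11.3 to 34.2, and p300 peaks in gastruloids reach at most 8.51.

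The promoter of Cldn1 (region chr16:26371644-26372091) had Sp5 folds of 34.2 and 19.6 in replicates 1 and 2. No p300 peak was listed there in either gastruloid list, and the only other peak was Zeb2 in replicate 1, at 6.31. The nearest p300 region was 10503 bp away. The promoter of Pex10 gave the same picture, with Sp5 folds of 23.8 and 15.0 and a Zeb2 peak of 6.75 in replicate 1. Inside Cdk6, the gene of a kinase that drives entry into S phase, a region with Sp5 folds of 22.9 and 11.3 had no peak in any of the 10 other libraries.

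Besides Cldn1, Pex10 and Cdk6, the promoter of Gid4 was the other of the 15 strongest regions with p300 in neither gastruloid list. Sp5 had folds of 25.2 and 13.2 there. RXRα had peaks in all 4 of its lists, at 6.25 and 4.01 in gastruloids and 3.69 and 5.14 in mESCs. Zeb2 had a peak in replicate 2 only, at 6.99, and p300 in mESC replicate 1 only, at 3.57. Near Tie1, the gene of an endothelial receptor kinase, Sp5 reached 31.7 and 23.6, with 271 and 230 fragments at the summit, the most of any of these regions in both replicates. Its p300 peak was listed in replicate 2 only, at 8.51. At the Hbs1l promoter the Sp5 folds were 31.6 and 16.7, and Zeb2 (7.72 and 5.55) and RXRα (12.9 and 5.34 in gastruloids) were present in both of their lists. Near Olfm4, the gene of a secreted olfactomedin protein, Sp5 had folds of 29.7 and 16.8. At an end of Lcp1, the gene of an actin-bundling protein, the folds were 21.9 and 12.7. At Hbs1l, Olfm4 and Lcp1 a gastruloid p300 peak was listed in replicate 2 only, at 6.03, 5.66 and 4.73.

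The Zeb2, RXRα and mESC p300 lists, called the other proteins here, were not used to choose the regions, so their presence could be tested. The mESC p300 libraries share the tag and antibody of the gastruloid p300 libraries used for the choice. That share is therefore not independent of how the regions were chosen. Zeb2, RXRα and mESC p300 were all found less often at Sp5 regions without p300 than at Sp5 regions with p300. A region of the other protein again had to have a peak in both of its replicates. Fisher's exact test, two-sided, was used with Benjamini-Hochberg adjustment over the 5 shares tested; it compares 2 sets of regions in these libraries, not replicated conditions. Each library gave a share for both sets of regions. Each difference for another protein thus rests on 2 libraries, too few for a test over libraries.

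Zeb2 was present at 291 of 1671 Sp5 regions without p300 (17.4%), against 4200 of 9282 with p300 (45.2%), beside 41.0% of all Sp5 regions. The odds ratio was 0.255 (95% interval 0.223 to 0.292, adjusted Fisher's exact p = 1.43e-109). In the replicate 1 list alone the shares were 61.4% without and 92.6% with p300, and in replicate 2 they were 15.6% and 41.3%. The direction was the same in both lists, although the lists differed more from each other than the classes did. With every list held to a −log10 q of at least 5 the difference fell to −13.6 points, and with Sp5 and p300 lists of equal length it was −16.9.

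RXRα in gastruloids was present at 30 Sp5 regions without p300 (1.80%), against 1019 with p300 (11%), beside 9.58% of all Sp5 regions (odds ratio 0.148, 0.0991 to 0.214, adjusted Fisher's exact p = 6.79e-43). These counts were held down by the short second RXRα list of 3236 peaks. In replicate 1 alone the shares were 30.1% without and 76.6% with p300, a difference of −46.5 points in place of −9.18, and in replicate 2 they were 2.09% and 10.6%. At a −log10 q of at least 5 in every list the difference was −5.39 points.

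In mESCs, p300 was present at 71 Sp5 regions without gastruloid p300 (4.25%), against 1715 with it (18.5%), beside 16.3% of all Sp5 regions (odds ratio 0.196, 0.151 to 0.250, adjusted Fisher's exact p = 2.29e-60). The shares were 8.62% without and 33.1% with p300 in mESC replicate 1, a difference of −24.5 points, and 5.39% and 22.1% in replicate 2. With lists of equal length the difference was −34.1 points. These libraries share the tag and antibody of the gastruloid p300 libraries used to choose the regions.

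RXRα in mESCs was present at 228 Sp5 regions without p300 (13.6%), against 3466 with p300 (37.3%), beside 33.7% of all Sp5 regions (odds ratio 0.265, 0.228 to 0.307, adjusted Fisher's exact p = 2.65e-89). Replicate 1 gave 25.5% without and 58.9% with p300, and replicate 2 gave 15.4% and 39.9%. The difference of −23.7 points was −9.79 with lists of equal length, −15.5 at a −log10 q of at least 5, and −15.6 where the RXRα region had to cover the Sp5 summit.

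**Figure D3:**
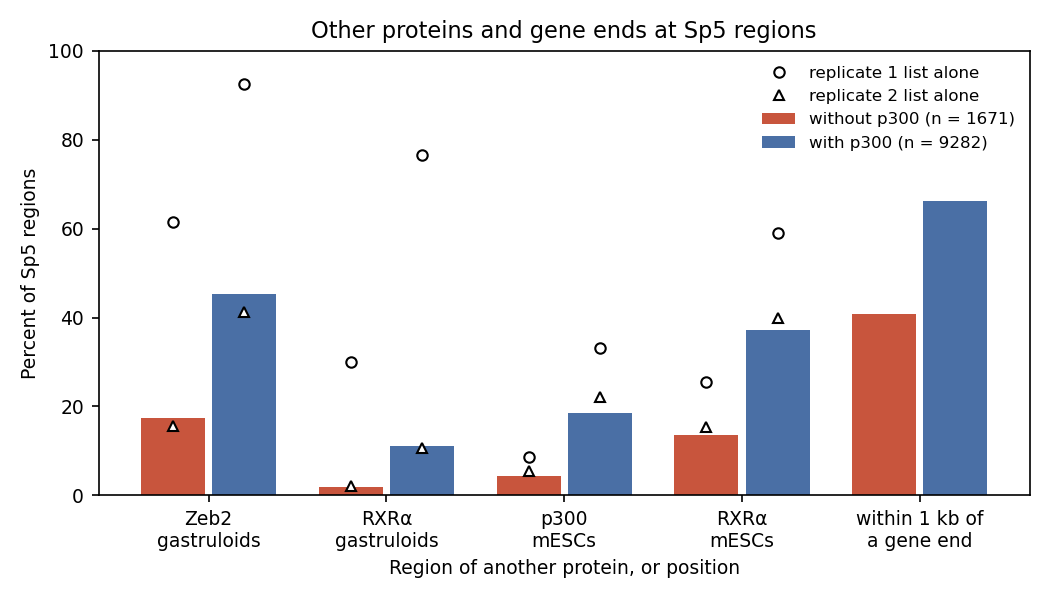
Percent of the 1671 Sp5 regions without p300 (red) and the 9282 with p300 (blue) that overlapped a region of each other protein or had their summit within 1 kb of an end of a protein-coding gene. Bars need a peak in both replicates; circles and triangles show the replicate 1 and replicate 2 lists alone, in which the share without p300 is lower each time.

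Sp5 peaks were weaker at the regions without p300, so the shares were also compared within 3 equal groups of Sp5 regions by −log10 q. In the highest group, Zeb2 was present at 23.4% of 278 regions without and 49.5% of 3373 with p300, and in the lowest group at 18.1% of 807 without and 40.8% of 2844 with p300. The odds ratios over the 3 groups (Mantel-Haenszel) were 0.271 for Zeb2, 0.160 for RXRα in gastruloids, 0.198 for p300 in mESCs and 0.277 for RXRα in mESCs, all close to the values over all regions. Peak width also differed between the classes, and the shares were also taken with the other protein's region required at the Sp5 summit itself: Zeb2 was then at 15.4% without and 41.2% with p300. The differences under that rule were −25.8 points for Zeb2, −7.52 for RXRα in gastruloids, −11.1 for p300 in mESCs and −15.6 for RXRα in mESCs.

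In combination, 1171 regions without p300 (70.1%) had no region of Zeb2, RXRα or mESC p300. A smaller group of 309 (18.5%) had no peak in any of the 10 other libraries, which include the gastruloid p300 libraries used for the selection. Both Zeb2 and RXRα regions of gastruloids were found at 14, and both p300 and RXRα regions of mESCs at 31. The same counts at Sp5 regions with p300 are not given, so these cannot be read as particular to the regions without p300.

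At most of the strongest regions with another protein, as at Fcgr3, Hbs1l and Amacr, the other protein's folds were below those of Sp5 in the same replicate, and the folds of different lists are set side by side only as values. Among the regions named for another protein, Gphn and Lmx1b were the exceptions in both replicates, and Arl15 in replicate 2 only. Inside Gphn, the gene of gephyrin, which anchors receptors at inhibitory synapses, Sp5 had folds of 16.6 and 9.88, while Zeb2 had 35.1 and 25.3 and RXRα 30.2 and 24.5 in gastruloids. There p300, precipitated with the V5 antibody, had a peak of 8.71 in gastruloid replicate 2 and none in replicate 1. In mESCs p300 had a peak of 7.01 in replicate 1 and none in replicate 2, and RXRα had a peak in both lists. Sp5, Zeb2 and RXRα were precipitated with the same HA antibody, and the part of the antibody was not tested. No untagged HA library was analysed here. Inside Lmx1b, the gene of a LIM homeodomain factor, Sp5 had folds of 16.6 and 11.9, and p300 in mESCs had 17.9 and 18. The gastruloid lists held a p300 peak of 4.89 there in replicate 2 and none in replicate 1. At the promoter of Ada, the gene of adenosine deaminase, Sp5 had 11.8 and 8.44 and mESC p300 3.81 and 3.57, with no gastruloid p300 peak in either list.

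The regions without p300 lay less often at gene ends. The summit was within 1 kb of an end of a protein-coding gene at 680 Sp5 regions without p300 (40.7%), against 6148 with p300 (66.2%), beside 62.3% of all Sp5 regions (odds ratio 0.350, 0.314 to 0.390, adjusted Fisher's exact p = 1.98e-84). A further 577 (34.5%) were inside a gene and 414 (24.8%) between genes, against 20.4% and 13.4% with p300. This direction turned when the 4 Sp5 and p300 lists were all held to their strongest 11932 peaks at once. Then 8242 of 9471 Sp5 regions had no p300. Of these, 67.9% lay at gene ends against 36.9% with p300, a difference of 31.0 points the other way. That cut changes the length of the lists together with the strength of the peaks kept, and the cause was not tested. At a −log10 q of at least 5 in all lists the gene-end difference was −14.0 points.

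Within the regions without p300, those at gene ends carried Zeb2 more often (24%) than those inside genes (13.3%) or between genes (12.3%); these 3 shares were not tested against each other. With p300 the shares were 48.0%, 41.6% and 37.0%. Sp5 fold hardly varied with place, with medians in replicate 1 of 7.16 at gene ends, 7.09 inside genes and 7.60 between genes.

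A set of these regions lay on tRNA genes, which are short genes transcribed by RNA polymerase III from promoter elements inside the gene. This group was noticed after the values were seen and is given with no test. Of the regions without p300, 65 (3.89%) had their summit within 1 kb of a tRNA gene, 59 of them within 50 bp of its end, with a median distance of 27 bp. Of the regions with p300, 94 (1.01%) lay within 1 kb of one. Seen from the genes, 77 of the 408 tRNA genes (18.9%) lay under an Sp5 region without p300, beside 3.07% of genes of any RefSeq type. More of the tRNA genes, 133, lay under an Sp5 region with p300, and 210 (51.5%) lay under any Sp5 region. The share of all genes under a region with p300 is not given. The 18.9% can therefore not be read as particular to the regions without p300.

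**Figure D4:**
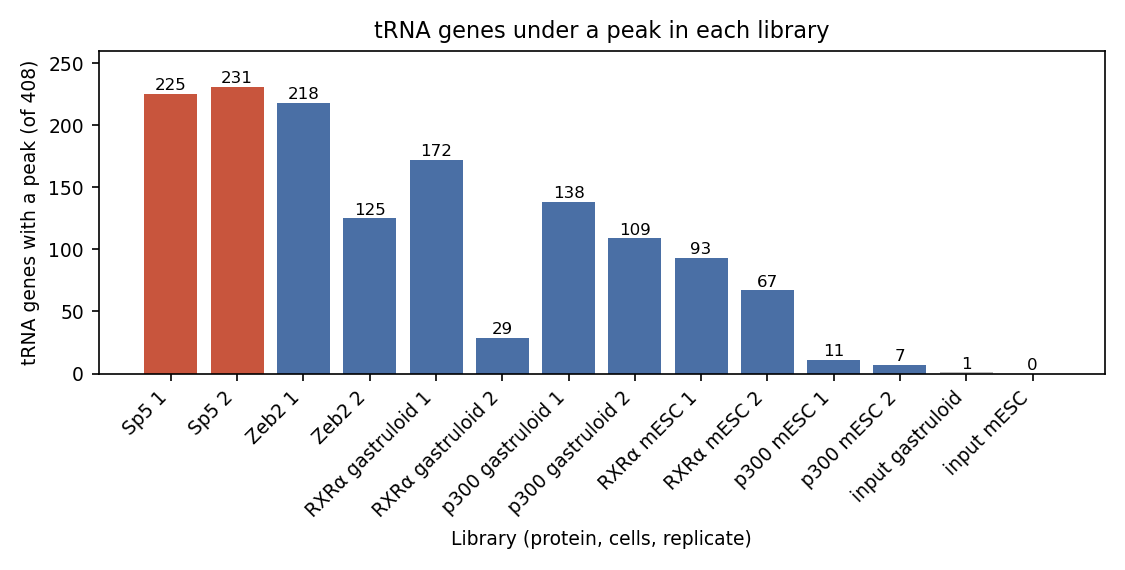
Number of the 408 RefSeq tRNA genes overlapped by a peak in each of the 14 libraries, before peaks at input peaks were removed; Sp5 is red, other proteins blue and inputs grey. The 2 Sp5 libraries covered 225 and 231 tRNA genes, the gastruloid input 1 and the mESC input 0.

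Sp5 peaks covered 225 and 231 of the tRNA genes in its 2 lists, Zeb2 218 and 125, RXRα in gastruloids 172 and 29, and p300 in gastruloids 138 and 109. In mESCs, RXRα covered 93 and 67 and p300 11 and 7. The inputs covered 1 in gastruloids and 0 in mESCs. Lists differ in length, so the same counts per 1000 deposited peaks were 11.1 and 18.7 for Sp5, 4.86 and 10 for Zeb2, 5.67 and 8.96 for gastruloid RXRα and 2.17 and 1.44 for gastruloid p300; the gastruloid input, with 1 tRNA gene among 514 peaks, had 1.95.

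At the 65 regions near tRNA genes, a Zeb2 peak was listed at 57 of 65 in replicate 1 and 30 of 65 in replicate 2. A p300 peak was listed in gastruloids at 13 and 8, and in mESCs at 0 and 1. Over all 1671 Sp5 regions without p300, Zeb2 peaks were listed at 1026 (61.4%) and 261 (15.6%), and mESC p300 peaks at 144 (8.62%) and 90 (5.39%). At the 94 regions with p300 near tRNA genes, Zeb2 peaks were listed at 94 and 71, and mESC p300 peaks at 18 and 8. The local background under the 65 regions was high, with medians of 4.64 and 7.82 fragments in the Sp5 replicates. Over all Sp5 regions without p300 the medians were 2.55 and 3.20. The part of the background in these peaks was not tested. Leaving out every Sp5 region within 1 kb of a tRNA gene left 1606 without p300, and the Zeb2 difference was then −28.6 points.

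Chromosome 13 held 37 of the 65 regions, and 16 of the 94 Sp5 regions with p300 near tRNA genes. Between 21167498 and 23526650, a stretch of 2.36 Mb with 101 tRNA genes, there were 59 Sp5 regions, 38 of them without p300 and 37 of these within 1 kb of a tRNA gene. All 8 regions assigned to Zfp184, the protein-coding gene with most Sp5 regions without p300, were near tRNA genes, as were all 5 of Gpx5. The region next to n-TItat14 in this stretch (chr13:21896757-21897370) had Sp5 folds of 10.2 and 6.28 and Zeb2 folds of 10.5 and 6.26, with no gastruloid p300 peak. RefSeq lists the Mir1983 hairpin over the same gene (chr13:21896918-21897049, minus strand, 132 bases), and its RNA sequence is shown because it overlaps the tRNA gene; capitals mark GUUCGA, the core of the B box bound by the polymerase III factor TFIIIC.
Mir1983: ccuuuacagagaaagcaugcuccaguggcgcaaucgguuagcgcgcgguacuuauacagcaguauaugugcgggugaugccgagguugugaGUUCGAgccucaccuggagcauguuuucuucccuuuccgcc

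The Sp5 summit lay inside this hairpin. It also lay inside a miRNA hairpin at the strongest region without p300 of all (chr1:171064307-171064868, in Fcgr3, the gene of an antibody receptor). There the 62-base Mir6546 hairpin (chr1:171064591-171064652, minus strand) covered the summit, and the tRNA gene n-TGtcc1 ended 98 bp away.
Mir6546: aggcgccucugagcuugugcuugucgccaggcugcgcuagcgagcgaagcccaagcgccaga

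At that region Sp5 had folds of 33.7 and 22.4, Zeb2 31.6 and 21.4, and RXRα in gastruloids 18.3 and 8.52. A p300 peak of 6.32 was listed in gastruloid replicate 2 only.

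The Sp5 regions without p300 were spread thinly over genes. A region was assigned to the nearest end of a protein-coding gene within 100 kb, which gave 1463 of 21883 genes (6.69%) at least 1; 1357 of these had a single region, 89 had 2, 12 had 3, 3 had 4, 1 had 5 and 1 had 8. Of the 1463 genes, 504 (34.4%) also had an Sp5 region with p300, a share close to the 35.5% of all protein-coding genes that had one. Over all genes, 15.1% of assigned Sp5 regions had no p300, and 14 gene lists were set beside that share; lists are described by their counts, with no test.

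**Figure D5:**
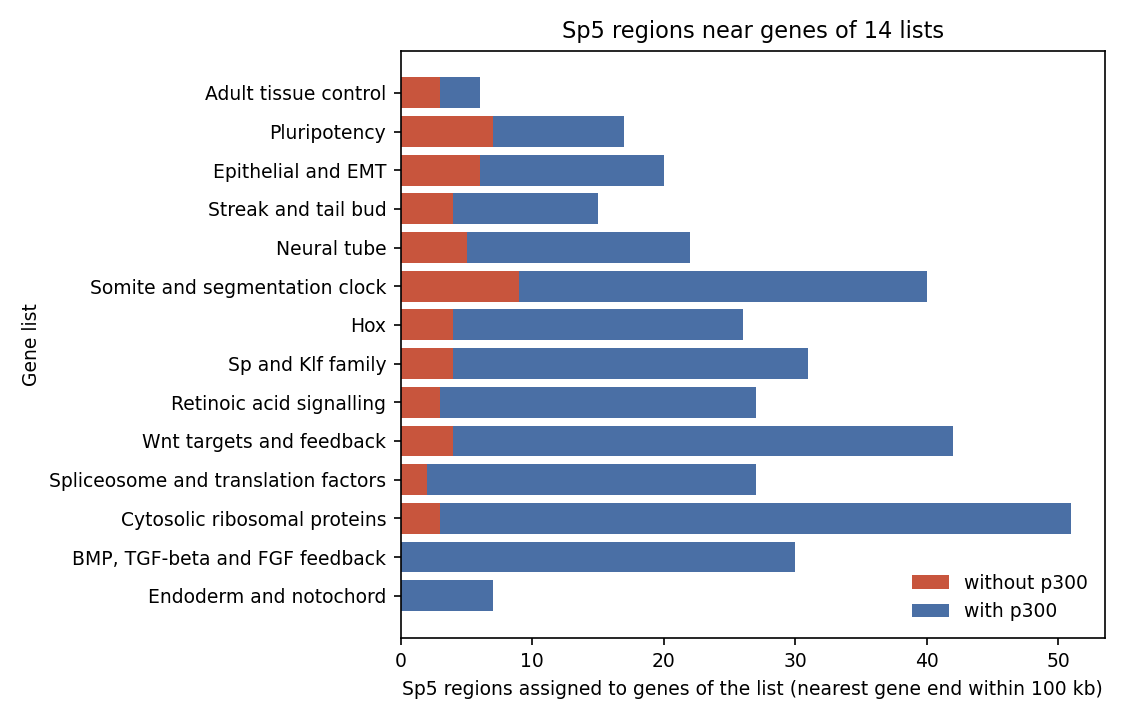
Number of Sp5 regions without p300 (red) and with p300 (blue) assigned to the genes of 14 lists, ordered from the highest share without p300 (top). The Wnt list had 4 without and 38 with p300, the pluripotency list 7 and 10, and the adult tissue control list, at the top, 3 and 3.

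To Wnt targets and feedback genes 4 Sp5 regions without p300 were assigned, against 38 with p300 (9.52% without, beside 15.1% over all genes). With assignment within 20 kb the share was 12.1%, beside 13.9% over all genes, and in both cases 4 of its 29 genes had one. At the promoter of Rnf43, a ubiquitin ligase that removes Wnt receptors, Sp5 folds were 8.90 and 6.17 and Zeb2 had 11.7 and 7.05, with a p300 peak of 3.16 in replicate 1 only. At the Wif1 promoter, whose product is a secreted Wnt inhibitor, Sp5 had 8.73 and 5.28. Here p300 peaks of 5.05 and 4.65 were listed in both replicates without overlapping each other, so this region lies at the edge of the rule. The Wnt ligands Wnt3a (5.59 and 3.78) and Wnt5a (4.26 and 4.29) had weak regions.

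The pluripotency list had 7 Sp5 regions without p300 against 10 with p300 (41.2% without), at 7 of its 25 genes. At the Tfcp2l1 promoter, whose window held no exact GGGCGG on either strand, Sp5 had folds of 13.3 and 9.69. Zeb2 had 7.39 and 6.43 there, with p300 in neither list. Zfp42, a marker of naive cells, had a region with Sp5 folds of 9.62 and 5.85 and a p300 peak of 8.71 in replicate 2 only. Sox2 (9.57 and 4.28), Tet1 (6.54 and 3.87), Fgf4 (5.49 and 5.74), Esrrb (4.81 and 4.15) and Utf1 (3.23 and 5.31) had no gastruloid p300 peak in either list. None of these 7 regions was a p300 region in mESCs, beside 4.25% of all Sp5 regions without p300, and 7 regions are too few to tell these apart.

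Somite and segmentation clock genes held 9 Sp5 regions without p300 against 31 with p300 (22.5%), at 7 of 27 genes. Inside Notch1 a region with Sp5 folds of 17.4 and 8.97 had no peak of any other protein, and at its promoter Sp5 had 10.3 and 7.27 beside a p300 peak of 2.45 in replicate 1. A region 40689 bp from Pax1, a sclerotome factor, had 13.2 and 8.89. Of 2 regions at Hes7, a repressor that oscillates in the clock, 1 lay 65 bp from the tRNA gene n-TLtag3 and the other 140 bp from n-TRtct4.

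The streak and tail bud list had 4 without against 11 with p300, among them the promoter of Cdx2, a posterior homeobox gene, with weak Sp5 folds of 5.20 and 4.43. The neural tube list had 5 against 17, with a region of 9.40 and 5.68 inside Pax6. The Hox list had 4 against 22, with Sp5 folds of 13.1 and 7.84 at an end of Hoxd3. The Sp and Klf family had 4 against 27, the retinoic acid list 3 against 24, and the epithelial list 6 against 14, where Cldn3, another claudin, had 2 (7.81 and 4.48, and 6.47 and 3.32).

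No Sp5 region without p300 was assigned to the 25 genes of BMP, TGF-beta and FGF feedback, against 30 with p300, nor to the 19 endoderm and notochord genes, against 7 with p300. The housekeeping lists were also low, with 3 against 48 for cytosolic ribosomal proteins (5.88%) and 2 against 25 for splicing and translation factors (7.41%). The adult tissue control list, of genes such as Ckm of muscle and Krt14 of skin, had 3 against 3. With so few regions a list, each share can move widely with 1 region.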

How the data were processed

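The files were lists of peaks, 1 per library for 14 libraries, not pooled between replicates. The tools named in the submitters' processing notes are MACS2 2.2.7, fastp 0.20.1 and BWA 2.2.1, and the builds are mm10 and GRCm38.p6; the roles and settings of the tools, and any control given to the peak caller, are not given in the sources used here. In the deposited lists the score was 10 times the −log10 q, rounded down. The deposited fold is a ratio of signal at the summit to local background, and the deposited −log10 p and −log10 q are the authors' own values. The last deposited column, of unit other, is the summit's offset in bp. The smallest −log10 q was that of a q of about 0.05.

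Peaks of the 21 main chromosomes were used, identical intervals once, and peaks overlapping an input peak were dropped. The immunoprecipitation lists then held 3111 to 75346 peaks, 19714 and 11932 of them for Sp5 and 63117 and 75346 for gastruloid p300. Depth is unknown; fragments at the summit were solved from fold and −log10 p, and whole fragments matched the deposited −log10 p within 0.01 for 99.8% and 100.0% of Sp5 regions in replicates 1 and 2. Overlap meant at least 1 bp. The summit of a region was that of its peak with the higher −log10 q. Genes, promoters and miRNAs came from RefSeq tables of GRCm38.p6, without a genome sequence. The gene table gives no strand and the promoter table covers 79.9% of protein-coding genes, so either gene end was used and starts only as an alternative.

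Shares were tested with Fisher's exact test (scipy 1.17.1, statsmodels 0.14.6, Python 3.11.15), and the region steps were tested on simulated data. Alternatives were other overlap, threshold and p300 rules, lists of equal length, input peaks kept, each replicate left out, 3 equal groups by Sp5 strength, and other distances. Genes were named by rule: the 15 strongest regions, the 10 genes with most regions, up to 4 genes a list, and the 5 strongest regions with each other protein or at gene ends; where others are named they were chosen after their values were seen. The regions, lists and motifs were chosen with earlier results of these data known.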

Additional observations from a re-analysis of the deposited data

How the results depend on the processing

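The number of Sp5 regions without p300 depended strongly on the p300 and Sp5 lists. It was 1671 as described, 841 where a p300 peak in either replicate counted, 8242 with lists of equal length, and between 1296 and 6051 when 1 replicate was left out, the highest without Sp5 replicate 2. Of the 15 strongest regions, 4 stayed without p300 when either replicate counted, and 5 when p300 replicate 1 was left out. The lower shares of Zeb2, RXRα and mESC p300 kept their direction and their side of the 0.05 threshold under every alternative run, as did the gene-end difference except with lists of equal length, where it turned to 31.0 points in favour of the regions without p300; the cause was not tested. Leaving out 1 replicate gave differences of −31.2 to −25.6 points for Zeb2, −46.5 to −8.47 for RXRα in gastruloids, −24.5 to −13.4 for p300 in mESCs, −33.4 to −23.3 for RXRα in mESCs and −31.6 to −25.9 for gene ends. Alternatives added after the data were seen were gene starts in place of either end (−24.8 points), regions near tRNA genes left out, and the other protein at the Sp5 summit. No paired analysis was possible because shared replicate numbers name libraries of different tagged lines and the tests compare regions, not libraries. The lists hold values only for called peaks, so p300 below the threshold of a list counts as absent.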
